A study of Mus musculus with 20 samples.

Results

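The comparison is that of 5 livers of WT mice kept for 48 h without food with 5 livers of WT mice that had food at all times, across all 22206 probe sets of an Affymetrix mouse array. These 10 livers were chosen by their labels, fasted WT and fed WT, and make up 10 of the 20 livers of a study on how the response to fasting changes when Mcl1 is lost from the liver. Mcl1 encodes an anti-apoptotic protein of the BCL2 family. The other 10 livers, 5 fed and 5 fasted, are labelled Mcl1(L-/-) and are called Mcl1KO here. They enter the statistical model, and otherwise appear only where the WT response was set against theirs.

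Fasted mice were housed singly in cages with a wire floor and had water but no food, and fed mice had both. The protocol given with all 20 samples names Mcl1(F/F) mice, which carry floxed Mcl1, and AAV-LP1-Cre, an adeno-associated virus that carries Cre recombinase under a promoter active in the liver. The labels do not say what the WT mice received, whether they carry the floxed alleles, or of which strain, sex and age they are. The hour at which livers were taken is not given either, so fasted and fed livers may differ in time of day, and the housing differed as well as the food. The labels call the 5 mice of a group biological replicates. Each liver gave 1 array.

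When food is absent the liver first spends its glycogen and then makes glucose from lactate, glycerol and amino acids, while fatty acids released by fat tissue are oxidised and in part turned into ketone bodies. Falling insulin removes the drive on fatty acid and sterol synthesis that acts through SREBP and ChREBP. Rising glucagon, glucocorticoids and fatty acids act through CREB, the glucocorticoid receptor and the nuclear receptor PPAR-alpha, and growth hormone loses much of its effect on the liver.

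All values are log2 signals, normalised together over the arrays, and a difference is the fasted mean minus the fed mean, so a log2 difference of 1 is a 2-fold rise. A probe set is said to have risen or fallen, or to have been called, where limma gave an adjusted p under 0.05 over all 22206 probe sets. The gene lists were chosen with earlier results of these data known, so their shares of calls are a description and not a test. The medians of the 10 WT arrays were 3.39 to 3.47, none repeated the values of another, and arrays correlated at r = 0.982 to 0.990 within a group and 0.971 to 0.983 between fed and fasted. On the first principal component of the 10 arrays (36.4% of the variance) fed livers lay between -26.0 and -18.6 and fasted livers between 14.7 and 30.0. Fasted WT replicate 4 stood apart on the second (12.6%), at 32.3, where the other 9 lay between -14.8 and 12.8. It was more than 1 log2 unit beyond the other 4 fasted livers in 59 probe sets, and fed WT replicate 1 was so far beyond the other fed livers in 23, against 3 to 17 for the other arrays. Fed WT replicate 1 also lay toward the fasted WT livers in 3 probe sets in which these stood apart from the other groups, given near the end. What these mice are beyond their food is not in the labels, so any other difference between the fed and the fasted WT mice cannot be told apart from fasting in this comparison. Mcl1 itself was not called, at 7.43 ± 0.15 (SD, n = 5) in fed and 7.28 ± 0.09 in fasted livers (adjusted p = 0.595), and albumin (Alb), the main secreted protein of hepatocytes, lay at 12.46 to 12.53 in the fed and 12.44 to 12.51 in the fasted livers.

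Fasting changed 1507 of the 22206 probe sets (6.79%), 689 higher (3.10%) and 818 lower (3.68%). Of these, 336 changed at least 2-fold (1.51%), 114 higher (0.513%) and 222 lower, so large falls outnumbered large rises. The median difference over all probe sets was 0.01. In 1634 probe sets (7.36%) the 5 fed and the 5 fasted values did not overlap, with the fasted livers above in 787 (3.54%) and below in 847 (3.81%).

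The largest rise of all was that of the clone-named transcript E030018B13Rik (log2 4.45, SE 0.44), and the next that of Cdkn1a, which encodes the cell cycle inhibitor p21. The fed livers gave 3.26, 4.05, 2.83, 3.59 and 3.19 and the fasted livers 7.14, 6.40, 7.78, 8.02 and 6.91, a rise of 14.5-fold (log2 3.86, SE 0.44, adjusted p = 2.35e-06). The lowest fasted liver was more than 2 log2 units above the highest fed one. Cyp17a1, a steroid hydroxylase, went from 4.56, 4.83, 6.99, 4.68 and 5.26 in the fed to 8.39, 9.16, 8.45, 9.60 and 8.90 in the fasted livers, a 12.4-fold rise in which fed WT replicate 3 was the highest of the fed livers. Zbtb16, a transcriptional repressor induced by glucocorticoids, rose 5.98-fold (adjusted p = 2.21e-07), Mfsd2a, a carrier of lysophosphatidylcholine, 5.79-fold, and Omd, an extracellular matrix proteoglycan, 4.16-fold from a signal near the bottom of the scale. Fam107a rose 4.74-fold over all arrays, with 6.82 in fasted WT replicate 4 and 4.16 to 4.97 in the other fasted livers. Without that array its difference was 1.79 in place of 2.25.

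With all arrays no gene fell further than Hsd3b5, a 3-beta-hydroxysteroid dehydrogenase made mostly in male liver. The fed livers gave 10.25, 10.11, 9.71, 9.86 and 10.08 and the fasted livers 4.64, 4.35, 4.53, 4.46 and 4.23, a 47.2-fold fall (log2 -5.56, SE 0.18, adjusted p = 6.6e-16), and the spread within each group was small beside it. Without fed WT replicate 1 the difference was -5.50, and that of the predicted gene Gm4788, described near the end, was larger, at -5.76. Car3, a carbonic anhydrase abundant in hepatocytes and fat cells, fell from 11.12, 10.61, 10.76, 11.11 and 10.84 to 8.74, 8.60, 7.71, 6.63 and 6.94 (8.96-fold, adjusted p = 1.93e-05). Its fasted livers spread far more widely than its fed ones, without reaching them. Mme, the cell surface peptidase neprilysin, fell 6.19-fold, Pdzk1ip1 6.84-fold and Serpina7, the thyroxine-binding globulin of plasma, 7.49-fold, each with no overlap between the groups.

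**Figure D1:**
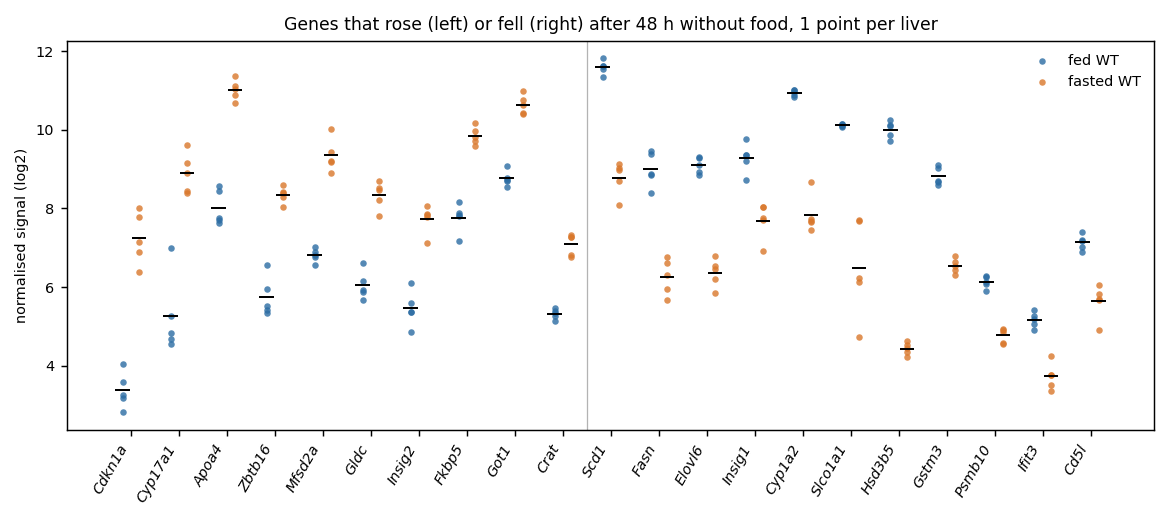
Normalised log2 signal of 21 genes in each of the 5 fed WT (blue) and 5 fasted WT (orange) livers, with group means as black bars; the 10 genes on the left rose and the 11 on the right fell. In each of these genes the fed and fasted points are apart, with the widest gap in Hsd3b5, where the fed livers lie between 9.71 and 10.25 and the fasted livers between 4.23 and 4.64.

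Genes that burn fatty acids rose, by amounts that were mostly under 2-fold. Of 23 measured genes of mitochondrial beta-oxidation 11 rose and 0 fell, against 3.10% and 3.68% of all probe sets, and the median log2 difference was 0.43, against 0.01 over all probe sets. Cpt1a, the carnitine palmitoyltransferase that admits long-chain fatty acids to mitochondria, gave 8.96, 8.84, 8.80, 8.59 and 8.75 in fed and 9.77, 9.79, 9.81, 9.37 and 9.70 in fasted livers (1.87-fold higher, adjusted p = 5.21e-06). All fasted livers exceeded all fed ones, and fasted WT replicate 4 was the lowest of them. The widest change in the list was that of Hsd17b10, a mitochondrial dehydrogenase that also acts on isoleucine breakdown, a 2.67-fold rise. Acadm, the medium-chain acyl-CoA dehydrogenase, rose 1.83-fold and Cpt2, which rebuilds acyl-CoA inside the mitochondrion, 1.57-fold. Other enzymes of the spiral moved less: Hadh, Echs1, Acads and Acaa2 differed by 0.24, 0.23, 0.11 and -0.14 and were not called. The rise was not shared by every liver: relative to the fed mean, the median of the 23 genes was 0.42 to 0.54 in 4 fasted livers and 0.02 in fasted WT replicate 4. Without fed WT replicate 1, 9 rose (median 0.38). Without fasted WT replicate 4, 13 of the 23 rose and their median was 0.49.

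Of 21 peroxisomal genes 6 rose and 2 fell (median 0.18). Both numbers rested on single livers. Without fed WT replicate 1, 5 rose and 1 fell (median 0.09), and without fasted WT replicate 4, 8 rose and 1 fell (median 0.24). The number that fell was also 1 when any of fed WT replicate 5 and fasted WT replicates 3 and 5 was left out. Relative to the fed mean the median was -0.16 in fasted WT replicate 4, on the other side of 0 from the other fasted livers. Crat, carnitine acetyltransferase, which exports short acyl groups, rose from 5.28, 5.40, 5.33, 5.47 and 5.14 to 7.27, 7.27, 7.33, 6.82 and 6.76 (3.40-fold), and Acox2, the oxidase for branched side chains, rose 1.95-fold. Against these, Nudt7, a peroxisomal hydrolase of coenzyme A, fell from 10.01, 9.72, 9.46, 9.47 and 9.65 to 7.18, 7.24, 7.49, 6.60 and 7.16, a 5.77-fold fall (adjusted p = 2.7e-10) with a clear gap between the groups. Nudt7 has 3 probe sets: the one shown here is the brightest, a second was also called and the third was not (adjusted p = 0.0546).

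Among 28 targets of PPAR-alpha, the receptor that fatty acids activate, 11 rose and 1 fell (median 0.47). Here too fasted WT replicate 4 lay low, with a median of 0.04 relative to the fed mean against 0.53 to 0.86 in the other fasted livers, and without it 12 rose with a median of 0.56. The fatty acid omega-hydroxylase Cyp4a10 gave 9.50, 10.34, 9.95, 10.12 and 9.71 in fed and 11.87, 11.85, 11.89, 11.55 and 11.86 in fasted livers, a 3.68-fold rise. The fasted values were nearly equal to each other and close to the top of the scale. Its neighbour Cyp4a14 rose 4.22-fold (adjusted p = 0.041), a call that any 1 array left out ended (adjusted p = 0.0518 to 0.127), with 8.04 in fed WT replicate 1 and 9.93 to 10.22 in the other fed livers. Fabp1, the liver fatty acid binding protein and a known PPAR-alpha target, moved the other way, from 10.82 to 11.02 in the fed to 9.77, 8.91, 8.48, 8.16 and 9.53 in the fasted livers (3.82-fold lower). The receptor gene Ppara differed by -0.41 (adjusted p = 0.364), the starvation hormone Fgf21 by 0.35 (adjusted p = 0.764) from a dim signal, and Pdk4, the kinase that shuts pyruvate dehydrogenase, by 0.81 (adjusted p = 0.311). In Pdk4 the groups did not overlap, at 4.13 to 4.50 in fed and 4.80 to 5.47 in fasted livers, and with the spread taken from the 10 WT arrays alone its adjusted p was 0.00127.

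Lipid storage and release changed in the same livers. Of 24 genes of lipid droplets 6 rose and 0 fell. Plin5, the droplet protein that tethers droplets to mitochondria, rose 2.78-fold, Pnpla2, the adipose triglyceride lipase, 1.97-fold, and Lpin1, a phosphatidate phosphatase and coactivator, 3.28-fold. Lpin1 gave 8.96, 8.83, 7.94, 8.11 and 7.57 in fed livers and 9.93, 9.53, 10.15, 10.22 and 10.16 in fasted livers, with fed WT replicates 1 and 2 closest to the fasted livers. Cidec, which fuses droplets, rose 3.78-fold, from 2.75, 3.47, 2.93, 2.89 and 2.92 to 4.94, 4.40, 5.39, 3.61 and 6.19. Uptake and activation genes split, 2 up and 7 down of 21: the transporter Slc27a1 rose 3.90-fold, while Fabp5, an epidermal-type fatty acid binding protein, fell 6.26-fold and Dbi, the acyl-CoA binding protein, 2.61-fold. The ketone list held 7 measured genes, of which Acat1 rose 1.43-fold and Aacs, which spends acetoacetate on lipid synthesis, fell 4.05-fold. Bdh1, the beta-hydroxybutyrate dehydrogenase, differed by -0.98 (adjusted p = 0.201, and 0.0438 with the 10 WT arrays alone) with 8.41, 7.58, 7.59, 6.30 and 8.06 in the fasted livers.

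Fatty acid synthesis fell as a group. Among 23 lipogenic genes 15 were lower and 0 higher, with a median of -1.08, against 3.68% of all probe sets that fell. Fasn, fatty acid synthase, gave 9.39, 8.40, 9.45, 8.85 and 8.87 in the fed and 6.32, 5.68, 6.61, 5.95 and 6.78 in the fasted livers (6.60-fold lower, SE 0.26 on log2, adjusted p = 1.56e-07). The desaturase Scd1 went from 11.63, 11.55, 11.81, 11.61 and 11.34 to 8.99, 9.02, 9.13, 8.10 and 8.69 (6.98-fold lower). In both the groups were far apart, and for Scd1 fasted WT replicate 4 was the lowest liver. The steps before and after the synthase fell too: Acly, which makes cytosolic acetyl-CoA from citrate, 3.64-fold, Acaca, acetyl-CoA carboxylase, 2.86-fold, Me1, a source of NADPH, 2.30-fold, and the elongase Elovl6 6.60-fold. Mlxipl, which encodes ChREBP, fell 2.62-fold, and its target Pklr, liver pyruvate kinase, 3.10-fold. The members that were not called include Nr1h3, which encodes the oxysterol receptor LXR-alpha (0.0), and Elovl2 and Elovl5, elongases of polyunsaturated fatty acids (-0.05 and 0.18). Triglyceride and phospholipid synthesis did not fall with them: 7 of 26 genes rose and 0 fell. As a group they hardly moved, with a median of 0.06 and 14 differences above and 12 below 0. Those that rose include Agpat3 (1.99-fold), Chkb (1.82-fold) and Chpt1 (1.67-fold), which act in glycerolipid and phosphatidylcholine synthesis.

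Cholesterol synthesis also fell, in 12 of 18 measured genes (0 rose, median -1.04), and here 1 liver weighed on the values. Sqle, squalene epoxidase, gave 6.91, 5.72, 7.35, 6.10 and 6.81 in fed and 5.72, 4.55, 4.66, 3.26 and 5.69 in fasted livers (3.48-fold lower, adjusted p = 0.00272). Nsdhl, a dehydrogenase of the late pathway, gave 9.21, 8.52, 9.43, 8.89 and 9.0 and 7.45, 7.03, 7.05, 5.0 and 7.63 (4.52-fold lower). Fasted WT replicate 4 was the lowest liver for both, and fed WT replicate 2 the lowest fed one. Relative to the fed mean the median of the 18 genes was -1.32 in fasted WT replicate 4 and -0.99 to -0.60 in the other fasted livers, and -0.54 in fed WT replicate 2. Without fasted WT replicate 4, 10 of the genes fell and their median was -0.84. Sqle then differed by -1.42 and Nsdhl by -1.72. The regulators diverged: Insig1, which retains SREBP in the endoplasmic reticulum, fell from 9.22, 8.72, 9.76, 9.36 and 9.36 to 8.05, 7.71, 8.03, 6.91 and 7.77 (3.01-fold), whereas its paralogue Insig2 rose from 6.10, 5.60, 4.86, 5.37 and 5.38 to 7.86, 7.85, 8.07, 7.13 and 7.79 (4.84-fold). Srebf2, which encodes the sterol-sensing factor itself, differed by 0.20 (adjusted p = 0.584). SREBP acts on these genes together with NF-Y, a factor that binds the letters CCAAT. Read on either strand in the 250 bases before and 50 after each annotated start (RefSeq, GRCm38.p6), it stood in 15 of 15 cholesterol synthesis genes that have such a window, 9 of them genes that fell and 6 not called, against 42.2% of all 15691 genes with one. It was in 43.2% of genes that rose and 42.7% of those that fell, and in 5 of 25 male-biased genes. The 5 genes below, chosen from those with the largest falls and a match before the start, are shown because every gene of the pathway with a window held these letters. They are printed 5′ to 3′ on the gene's own strand over 60 bases, with each CCAAT, or its reverse complement ATTGG, in capitals.
Nsdhl, chrX:72918461-72918520, plus strand: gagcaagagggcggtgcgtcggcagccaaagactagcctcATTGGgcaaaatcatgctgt
Idi1, chr13:8885546-8885605, plus strand: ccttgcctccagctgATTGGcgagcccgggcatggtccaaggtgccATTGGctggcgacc
Cyp51, chr5:4104698-4104757, minus strand: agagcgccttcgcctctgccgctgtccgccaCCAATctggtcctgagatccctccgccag
Hmgcs1, chr13:119690278-119690337, plus strand: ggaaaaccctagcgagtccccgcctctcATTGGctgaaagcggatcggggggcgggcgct
Sc5d, chr9:42264301-42264360, minus strand: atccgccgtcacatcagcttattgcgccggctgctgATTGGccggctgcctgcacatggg
The match closest to the start lay 20, 14, 29, 45 and 24 bases before it in these 5 genes. A match is a description of these letters and shows neither binding nor a cause.

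Lipoprotein and bile acid genes gave a few large changes beside many small ones. Apoa4, an apolipoprotein of triglyceride-rich particles, rose from 7.64, 7.75, 8.57, 7.70 and 8.43 to 10.89, 11.03, 11.12, 10.69 and 11.35 (7.98-fold, adjusted p = 2.11e-07), and Apoa5, which promotes triglyceride clearance, rose 1.86-fold. The structural genes Apob, Apoa1, Apoe and Mttp differed by 0.05, 0.14, 0.06 and 0.14 and were not called. Angptl8, a feeding-induced inhibitor of lipoprotein lipase, fell from 7.03, 7.08, 8.80, 8.52 and 8.44 to 5.85, 5.81, 6.71, 6.92 and 4.61 (3.99-fold, adjusted p = 0.0145), with fed WT replicates 1 and 2 lower than the other 3 fed livers. Without fed WT replicate 3 or fasted WT replicate 5 its adjusted p was 0.0507 and 0.0519. Of 22 bile acid genes 3 rose and 2 fell. Cyp8b1, the 12-alpha-hydroxylase that sets the share of cholic acid, rose 3.64-fold, with fed values from 6.45 to 8.64 and fasted values from 8.77 to 9.96. The oxysterol hydroxylase Cyp39a1 rose 3.09-fold. Cyp2c70, which makes muricholic acids in mice, fell 6.58-fold, with fed values of 9.42, 9.37, 9.04, 9.03 and 9.46 and fasted values of 6.98, 6.34, 5.54, 8.62 and 5.26. Fasted WT replicate 4 kept a value near the fed livers, and without it the difference was -3.24 in place of -2.72. Cyp7a1, the rate-limiting enzyme of bile acid synthesis, differed by 0.47 (adjusted p = 0.53), and Nr1h4, which encodes the bile acid receptor FXR, by 0.01.

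Gluconeogenic genes rose in 13 of 22 cases with none lower (median 0.47), and the gene of the enzyme that releases glucose was not among them. Pck1, the cytosolic phosphoenolpyruvate carboxykinase, gave 11.02, 10.92, 10.74, 11.01 and 10.81 in fed and 11.63, 11.57, 11.64, 11.49 and 11.45 in fasted livers, a 1.57-fold rise (adjusted p = 8.9e-05) with no overlap. G6pc, the catalytic subunit of glucose-6-phosphatase, gave 10.81, 10.44, 9.89, 9.71 and 10.09 and 9.82, 10.06, 10.39, 9.27 and 10.02, values that overlapped (log2 -0.28, adjusted p = 0.578). Its partner Slc37a4, which carries glucose 6-phosphate into the endoplasmic reticulum, rose 2.0-fold. Enzymes that feed carbon into the pathway rose too: the aminotransferases Got1 (3.66-fold, adjusted p = 9.54e-08), Gpt2 (2.27-fold) and Gpt (1.59-fold), and pyruvate carboxylase, Pcx (1.69-fold). Ppargc1a, the coactivator PGC-1-alpha, rose from 6.18, 6.82, 5.63, 5.88 and 5.44 to 7.45, 7.68, 8.0, 8.20 and 7.63 (3.48-fold), and fed WT replicate 2 was the highest fed liver. Fbp1 differed by 0.19 and was not called.

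Glycolysis and glycogen genes split, with 3 up and 3 down of 29 and 2 up and 3 down of 20. Without fed WT replicate 4 only 1 glycolysis gene rose, and leaving out any of fed WT replicates 2, 3 and 5 and fasted WT replicate 3 left 1 glycogen gene that did. Pfkfb3, which makes the activator of phosphofructokinase, fell 3.0-fold, from 6.86, 7.79, 6.14, 5.61 and 5.82 to 5.07, 4.46, 4.60, 5.57 and 4.60, and it varied between the fed livers more than between the fasted ones. Slc2a1, the glucose transporter GLUT1, rose 1.71-fold. Glycogen synthase, Gys2, fell 1.66-fold (adjusted p = 0.000625) and glycogen phosphorylase, Pygl, 1.53-fold, so both the builder and the breaker of glycogen were lower.

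Genes of amino acid breakdown rose. Of 48 measured genes of amino acid catabolism 19 rose and 1 fell, and 42 differences were above 0 (median 0.34). Gldc, the decarboxylase of the glycine cleavage system, gave 6.63, 5.89, 5.67, 6.16 and 5.92 in fed and 7.80, 8.70, 8.47, 8.53 and 8.21 in fasted livers (4.88-fold higher, adjusted p = 2.12e-07). Its partner subunits Amt and Gcsh differed by 0.13 and -0.27 and were not called. Hal, which starts histidine breakdown, rose 2.09-fold, Aass, the entry of lysine breakdown, 1.76-fold, Tat, tyrosine aminotransferase, 1.61-fold and Tdo2, tryptophan dioxygenase, 1.54-fold. Enzymes of branched-chain amino acids lay lower on the scale of change: Bckdha, Bckdhb and Dbt differed by 0.27, 0.29 and 0.40, and none was called. In the urea cycle 4 of 13 genes rose and 1 fell. Asl, argininosuccinate lyase, rose 2.93-fold, Arg1, arginase, 1.71-fold and Cps1, the first enzyme, 1.38-fold, while Otc, the second, differed by -0.29 and was not called. Slc38a3, a glutamine transporter, fell 1.35-fold.

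Of 20 genes of the methionine cycle and methyl transfer 6 rose and 2 fell (median 0.12). Betaine-homocysteine methyltransferase, Bhmt, gave 11.16, 9.77, 9.92, 10.02 and 10.02 in fed and 11.94, 12.18, 12.26, 12.04 and 11.98 in fasted livers (3.73-fold higher, adjusted p = 2.03e-06). Fed WT replicate 1, at 11.16, stood above the other fed livers at 9.77 to 10.02, and without it the difference was 2.14. Dmgdh, the next enzyme of betaine breakdown, rose 2.49-fold, Ahcy and Mat1a, which recycle and make S-adenosylmethionine, 1.76-fold and 1.72-fold, and Nnmt, which methylates nicotinamide, 2.67-fold. Inmt, which methylates indoles and other amines, fell 4.23-fold, and Gamt, the last enzyme of creatine synthesis, 2.24-fold. Pemt, which makes phosphatidylcholine with S-adenosylmethionine, differed by -0.18 and was not called.

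**Figure D2:**
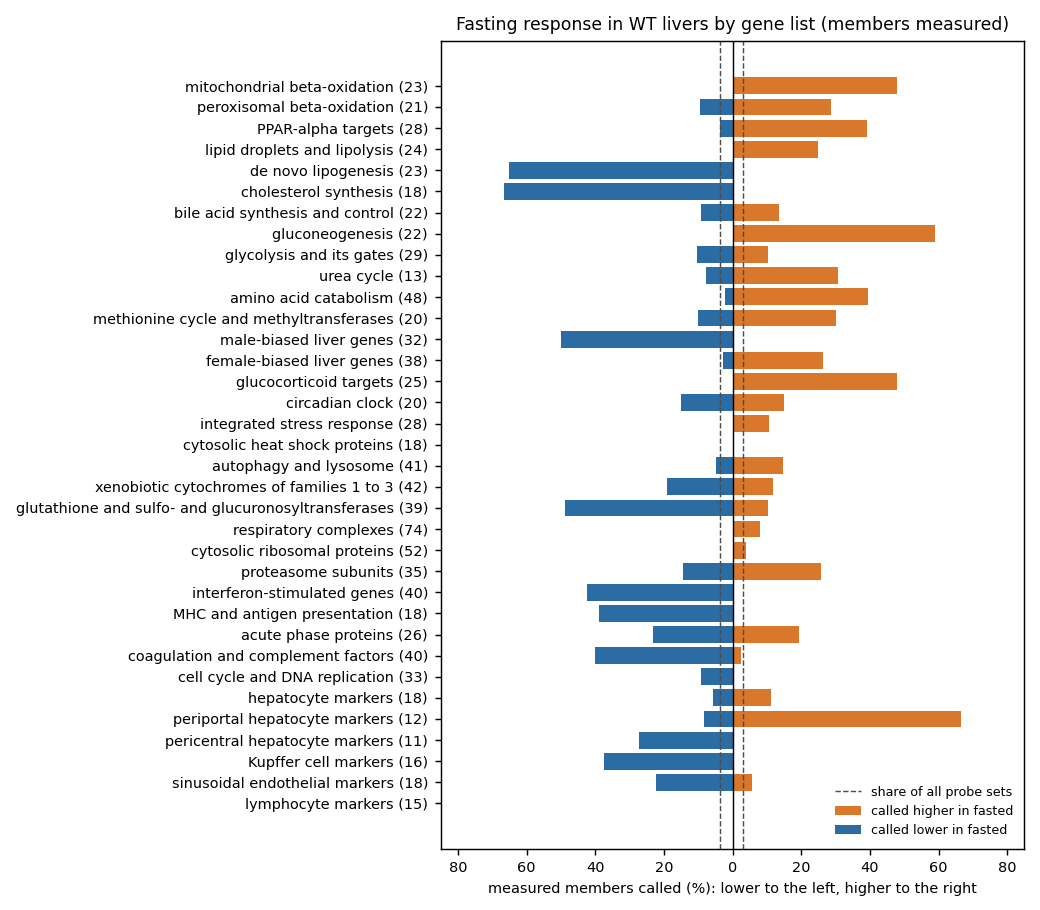
Share of measured members called higher (orange, right) or lower (blue, left) in fasted than in fed WT livers for 35 gene lists, with the number measured in brackets; dashed lines mark the share among all probe sets, 3.10% higher and 3.68% lower. Lipogenesis and cholesterol synthesis reach furthest to the left, with 15 of 23 and 12 of 18 lower, and periportal markers and gluconeogenesis furthest to the right, with 8 of 12 and 13 of 22 higher. The lists were chosen with earlier results of these data known.

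Growth hormone, through its sex-specific pattern of release, keeps a set of genes different between male and female livers. Of 32 male-biased genes 16 fell and 0 rose (median -0.69). Slco1a1, an organic anion transporter, gave 10.07, 10.15, 10.10, 10.13 and 10.14 in fed livers, which were nearly equal, and 7.70, 4.74, 6.24, 6.14 and 7.67 in fasted livers, which differed widely from each other (adjusted p = 6.6e-06). C8a, a subunit of the membrane attack complex, fell from 7.74, 8.06, 7.93, 7.86 and 8.10 to 6.08, 5.64, 4.95, 5.59 and 6.49 (4.56-fold), Keg1 4.32-fold and the transporter Slc22a28 5.44-fold. The male-biased genes that were not called include the hydroxylases Cyp2d9 and Cyp4a12a (0.26 and -0.30), the major urinary protein gene Mup20 (-0.11), which has near-identical copies in the genome, and Elovl3, at 7.43, 7.40, 7.03, 4.73 and 7.73 in the fasted livers with fasted WT replicate 4 far below the rest.

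Of 38 female-biased genes 10 rose and 1 fell (median 0.09). Sult1e1, oestrogen sulfotransferase, went from 2.17, 2.20, 2.42, 1.99 and 2.23 in fed to 3.28, 4.26, 5.04, 7.39 and 3.21 in fasted livers (5.42-fold higher), highest in fasted WT replicate 4. Without that array its difference was 1.75 in place of 2.44 (adjusted p = 0.000118). Fmo2 rose 3.16-fold and the cytochromes Cyp2c38 and Cyp2c39 2.63-fold and 3.08-fold. Most others were not called: Cyp3a41a, Cyp2b13, Sult2a1 and Sult3a1 differed by 0.03, -0.07, -0.01 and 0.06. The axis itself gave small values. Igf1 lay at 11.55 ± 0.06 (SD, n = 5) in fed and 11.65 ± 0.06 in fasted livers (adjusted p = 0.618), and Stat5b, the factor that growth hormone activates, differed by 0.03. Ghr, the growth hormone receptor, fell 1.47-fold. Socs2, a direct target of that signal, differed by -0.59 (adjusted p = 0.601), with 5.91, 5.42, 5.50, 7.39 and 4.63 in the fasted livers.

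Targets of the glucocorticoid receptor rose in 12 of 25 cases, with 0 lower (median 0.63). Fkbp5, a chaperone of the receptor and one of its most used target genes, gave 7.89, 8.16, 7.84, 7.17 and 7.80 in fed and 9.71, 9.97, 9.59, 9.82 and 10.18 in fasted livers (4.23-fold higher, adjusted p = 1.15e-08), with fed WT replicate 4 the lowest. Klf9 rose 1.75-fold and Klf15 1.40-fold. Other textbook targets were not called: Tsc22d3, Sgk1 and Per1 differed by -0.06, -0.15 and 0.58, and the receptor gene Nr3c1 by -0.38. The metallothionein gene Mt2 gave 10.66, 11.32, 9.07, 8.90 and 8.74 in fed and 10.74, 10.77, 10.49, 11.34 and 9.87 in fasted livers, where fed WT replicates 1 and 2 were as high as the fasted livers (adjusted p = 0.355). Serpina6, the plasma carrier of corticosteroids, fell from 8.07, 8.63, 8.62, 8.59 and 8.46 to 7.06, 6.63, 6.03, 6.41 and 5.38 (4.51-fold). Igfbp1, an insulin-repressed binding protein of IGF1, gave 9.33, 9.62, 7.30, 6.93 and 7.36 in fed and 8.58, 8.69, 9.67, 10.31 and 9.15 in fasted livers and was not called (adjusted p = 0.141). Here too fed WT replicates 1 and 2 were as high as the fasted livers. Lepr, the leptin receptor, differed by -0.10 (adjusted p = 0.966).

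Of 20 clock genes 3 rose and 3 fell. Arntl, which encodes BMAL1, rose from 2.86, 2.83, 2.86, 2.76 and 2.56 to 3.53, 4.10, 4.59, 4.25 and 3.71 (2.40-fold, adjusted p = 0.00133) and its partner Clock 1.86-fold, whereas Bhlhe41, a repressor of the clock, fell 2.13-fold and Nr1d2, which encodes REV-ERB-beta, 1.48-fold. Dbp, an output of the clock, lay at 10.02 to 10.30 in fed and 9.0 to 9.47 in fasted livers, apart but not called (adjusted p = 0.0675, and 2.56e-05 with the 10 WT arrays alone). Per2 and Nr1d1 differed by -0.18 and -0.27. As the hour of sampling is not given, a shift in phase and a change in level cannot be told apart.

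Enzymes that conjugate foreign and endogenous compounds for excretion fell, and cytochromes went both ways. Of 39 glutathione, sulfo- and glucuronosyltransferases 19 fell and 4 rose (median -0.39). All 7 measured mu-class glutathione transferases fell, Gstm3 from 8.59, 9.03, 8.68, 9.10 and 8.70 to 6.78, 6.55, 6.64, 6.31 and 6.45 (4.83-fold), Gstm6 4.40-fold and Gstm1, the most used marker of the class, 1.52-fold. Gsta4, which clears lipid aldehydes, fell 2.30-fold and the glucuronosyltransferase Ugt2b1 3.39-fold. The sulfotransferases Sult1d1 and Sult1a1 rose 2.55-fold and 2.03-fold. Of 42 cytochromes 5 rose and 8 fell: Cyp1a2, a caffeine and oestrogen oxidase, fell from 10.83 to 11.01 in the fed to 8.67, 7.69, 7.45, 7.65 and 7.73 in the fasted livers (8.58-fold, adjusted p = 1.73e-08), Cyp2c55 4.13-fold, and Cyp3a13 rose 1.82-fold, while Cyp2e1 and Cyp3a11 differed by 0.09 and -0.03. Of 32 hepatocyte transporters of organic ions 2 rose and 6 fell: Slc22a7 fell 4.0-fold and Slco1a4 rose 3.32-fold. Of 26 retinol and carbonic anhydrase genes 2 rose and 6 fell, among them the retinoid enzymes Adh4 4.08-fold, Rdh11 3.16-fold and Cyp26a1, which degrades retinoic acid, 2.70-fold. The mu- and pi-class transferases, the Ugt2b and Ces genes and the Cyp2c and Cyp4a cytochromes are families of near-identical copies, in which probe sets may read more than 1 member.

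Stress lists went both ways, where 3.10% of all probe sets rose and 3.68% fell. Of 33 antioxidant genes and targets of the factor NRF2, 8 fell and 0 rose (median -0.08), and 8 fell whichever array was left out. The endoplasmic reticulum chaperone Hspa5 (BiP) rose 1.69-fold, from 10.05, 9.86, 9.60, 9.67 and 10.02 to 10.28, 10.60, 10.64, 10.72 and 10.75, while Pdia6, a disulfide isomerase, fell 1.45-fold. Over the 28 chaperone and folding genes 2 rose and 3 fell, counts that rested on single arrays. The first dropped to 1 when any of fed WT replicates 2, 3 and 5 and fasted WT replicate 4 was left out, and the second when any of fed WT replicates 1, 2 and 5 and fasted WT replicate 3 was. Of 28 genes of the integrated stress response 3 rose: Asns, asparagine synthetase, gave 4.89, 4.84, 5.17, 5.04 and 5.34 and 6.18, 6.26, 6.49, 6.77 and 5.48 (2.26-fold), and Atf5 rose 2.0-fold, while Atf4, Ddit3, Trib3 and Chac1 differed by -0.18, 0.31, 0.24 and 0.0 and were not called. None of 18 cytosolic heat shock genes was called by limma (4 higher and 1 lower at an unadjusted p under 0.05). Among 27 genes linked to p53 and growth arrest 5 rose, with Cdkn1a far ahead, Gadd45b at 2.40-fold and Btg1 at 1.58-fold. Of the 27 differences 23 were above 0 (median 0.15). The p53 targets Mdm2, Ccng1, Zmat3 and Phlda3 differed by 0.05, 0.04, 0.0 and 0.04 and were not called. In the autophagy and lysosome list 6 of 41 rose and 2 fell. Ctsl, a lysosomal protease, rose 2.08-fold and Bnip3, a mitophagy receptor, 1.71-fold, whereas Tfeb, Sqstm1, Becn1 and Gabarapl1 differed by 0.07, 0.28, -0.13 and -0.07. In the BCL2 family Bnip3 was the only one of 19 measured genes that limma called.

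Core mitochondrial and ribosomal lists differed in how many members were called, where 3.10% of all probe sets rose and 3.68% fell. Of 74 subunits of the respiratory complexes 6 rose and 0 fell, 55 differences were above 0 and the median was 0.09. The number that rose depended on single arrays: it dropped to 2 when any of fed WT replicates 3 and 5 and fasted WT replicates 2 and 3 was left out, and to 3 when fed WT replicate 2 or 4 was. Of 52 cytosolic ribosomal proteins 2 rose (median 0.06), and 1 when any array but fed WT replicate 5 or fasted WT replicate 1 or 2 was left out. Of 38 genes of mitochondrial dynamics, import and quality control 8 rose and 1 fell, and 7 to 9 rose with 1 array left out at a time. Clpx and Clpp, which together form a matrix protease, rose 1.87-fold and 1.42-fold.

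The proteasome split by the kind of subunit. The catalytic core and its regulatory caps degrade tagged proteins, and cells exposed to interferon replace 3 core subunits by Psmb8, Psmb9 and Psmb10 and add the PA28 cap made of Psme1 and Psme2. Of 35 measured subunits 9 rose and 5 fell. The grouping by kind was chosen after the values were seen. All 5 immunoproteasome and PA28 genes fell, Psmb10 from 6.09, 6.13, 6.27, 6.29 and 5.89 to 4.87, 4.56, 4.60, 4.91 and 4.95 (2.57-fold, adjusted p = 1.42e-06), Psmb9 1.71-fold and Psme2 1.65-fold. Of 6 ATPases of the regulatory particle 4 rose (median 0.48), of its 11 other subunits 4 (median 0.34) and of 13 constitutive core subunits 1 (median 0.14); in all 30 the difference was above 0. Psmd6 gave 6.82, 7.16, 7.01, 7.0 and 6.94 in fed and 7.61, 7.72, 7.76, 7.03 and 7.94 in fasted livers (1.54-fold, adjusted p = 0.00419). Fasted WT replicate 4 did not share the rise: its median over the 6 ATPases was -0.06 relative to the fed mean, where the other fasted livers lay between 0.52 and 0.71. Without it 14 subunits rose in place of 9, without fed WT replicate 1 it was 6, and the 5 that fell did so in both cases.

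**Figure D3:**
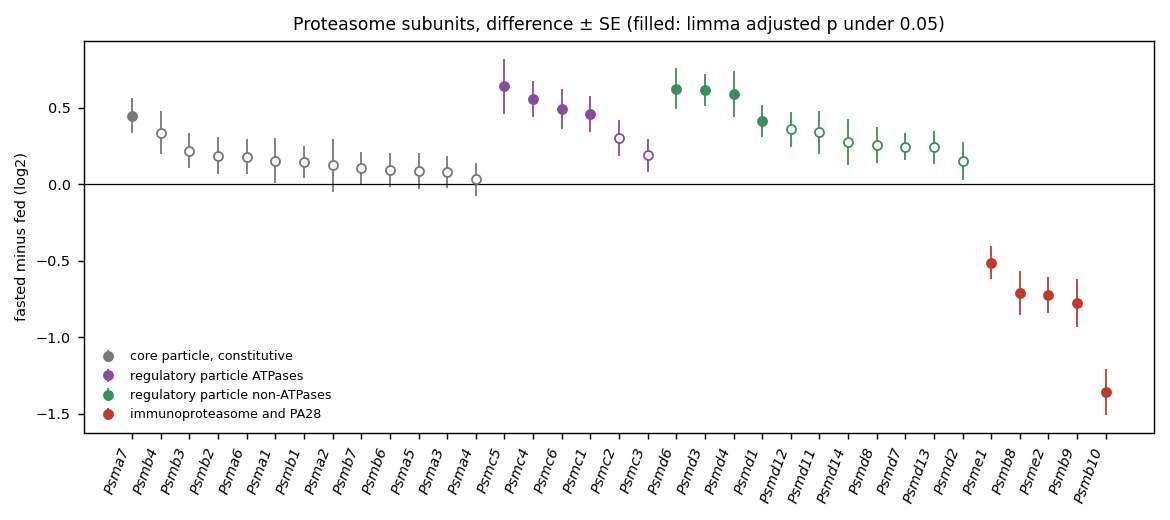
Log2 difference, fasted minus fed WT, with its standard error for 35 proteasome subunits grouped by kind; filled points were called. The 5 immunoproteasome and PA28 subunits lie below 0, between -1.36 and -0.51, and the other 30 above 0.

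Interferon-stimulated genes fell. Of 40 measured genes 17 fell and 0 rose, 38 differences were below 0 and the median was -0.40. Ifit3, an antiviral protein of the IFIT family, gave 5.27, 5.07, 5.18, 5.43 and 4.92 in fed and 4.25, 3.52, 3.37, 3.76 and 3.76 in fasted livers (2.72-fold lower, adjusted p = 2.32e-06). Irf7, the factor that amplifies the response, gave 5.23, 4.93, 5.43, 5.07 and 5.0 and 4.07, 3.99, 3.69, 3.71 and 3.29 (2.61-fold lower). Both pairs of groups were apart. Bst2, which tethers virus particles to the cell surface, fell 2.35-fold, Gbp7, a guanylate-binding protein, 2.51-fold and Xaf1 2.28-fold. The strongly inducible genes Mx1, Rsad2, Oas2 and Cmpk2 differed by -0.07, -0.13, -0.10 and -0.15 and were not called. Rsad2 was dim already in the fed livers, at 3.72 in fed WT replicate 5 and 3.09 to 3.24 in the others. The medians of the WT arrays were 3.39 to 3.47, so a fall of Rsad2 would be hard to see. Of 18 genes of MHC and antigen presentation 7 fell and 0 rose. H2-D1 and H2-K1, class I heavy chains with near-identical relatives, fell 1.30-fold and 1.23-fold, calls that did not outlast single arrays: H2-D1 was not called without fed WT replicate 2 (adjusted p = 0.0515), and H2-K1 was not called without any 1 of the 10 arrays (adjusted p = 0.0519 to 0.0942). Class II H2-Ab1 fell 2.04-fold, with 5.30, 3.97, 5.03, 3.86 and 3.84 in the fasted livers: 3 were more than 1 log2 unit under the fed livers and the other pair near them. B2m, the light chain, differed by -0.13.

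Factors of the STAT and IRF families that interferon activates bind a response element with a repeated GAAA. The letters GAAA, any 2 bases and GAAA again, on either strand in the same windows, stood in 19 of 29 listed interferon-stimulated genes with a window, 7 of 12 that fell and 12 of 17 not called, and in 3.94% of all 15691 genes. They stood in 7.23% of the genes that fell and 3.88% of those that rose. The 5 genes below were chosen from those with the largest falls and a match before the start. Each line gives 60 bases, 5′ to 3′ on the gene's strand, with the match, read on the gene's strand or the other, in capitals. Where matches overlap, the capitals run together.
Ifit3, chr19:34583382-34583441, plus strand: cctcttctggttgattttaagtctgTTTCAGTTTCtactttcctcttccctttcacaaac
Gbp7, chr3:142530258-142530317, plus strand: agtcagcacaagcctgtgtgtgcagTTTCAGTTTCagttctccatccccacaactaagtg
Bst2, chr8:71537562-71537621, minus strand: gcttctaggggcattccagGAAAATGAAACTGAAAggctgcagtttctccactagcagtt
Igtp, chr11:58199496-58199555, plus strand: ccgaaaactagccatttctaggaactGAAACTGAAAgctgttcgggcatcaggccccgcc
Gbp3, chr3:142559980-142560039, plus strand: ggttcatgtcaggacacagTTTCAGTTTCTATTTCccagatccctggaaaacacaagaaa
The match closest to the start lay 122, 53, 124, 34 and 39 bases before it.

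Secreted immune proteins fell in part. Of 40 coagulation and complement genes 16 fell and 1 rose (median -0.19). The terminal complement genes C9 and C6 fell 2.34-fold and 2.73-fold, beside C8a, and the lectin Mbl1, which recognises microbial sugars, 2.04-fold. Mbl1 gave 7.79, 8.50, 8.07, 8.09 and 8.50 in fed and 7.47, 7.21, 7.10, 6.63 and 7.37 in fasted livers. Coagulation factor F11 fell 2.24-fold, while prothrombin (F2), antithrombin (Serpinc1) and the fibrinogen chains Fga, Fgb and Fgg differed by -0.09, 0.02, -0.10, -0.07 and -0.09. Acute phase genes went both ways, 5 up and 6 down of 26. Lbp, which binds bacterial lipopolysaccharide, rose from 7.86, 8.77, 8.43, 8.28 and 8.43 to 9.50, 9.57, 9.55, 9.60 and 9.45 (2.27-fold), and the cytokine receptors Il1r1 and Il6ra rose 3.04-fold and 2.14-fold. Orm2 fell from 6.67, 8.15, 6.23, 6.58 and 7.01 to 5.66, 5.36, 5.09, 4.77 and 5.58 (3.11-fold), Steap4, a metalloreductase, 3.26-fold and Itih4 1.79-fold. Saa2, serum amyloid A, was not called (log2 -1.28, adjusted p = 0.0687, and 0.00054 with the 10 WT arrays alone), with fed values of 6.16, 6.06, 5.20, 5.39 and 6.36 and fasted values of 4.49, 4.61, 4.36, 4.80 and 4.51.

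Markers of other cells in the liver also moved, and in a whole-liver sample fewer cells of a type and less RNA per cell cannot be told apart. Of 16 markers of Kupffer cells, the resident macrophages, 6 fell and 0 rose, and all 16 differences were below 0 (median -0.57). Relative to the fed mean, the median of these markers was -0.64 to -0.46 in the fasted and -0.24 to 0.27 in the fed livers. Cd5l, a protein that resident macrophages secrete, gave 6.90, 7.40, 7.16, 7.03 and 7.19 in fed and 6.07, 5.83, 5.71, 4.91 and 5.69 in fasted livers (2.82-fold lower, adjusted p = 0.000166). Folr2 fell 2.76-fold, Lyz2, lysozyme, 2.78-fold, Vsig4, a complement receptor, 1.92-fold and Clec4f, the lectin that defines the type in mice, 1.66-fold. Cd163 and Marco differed by -0.05 and -0.28 and were not called. Several interferon-stimulated and class II genes are also made by macrophages, and whether their fall follows these markers was not tested.

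Of 18 markers of sinusoidal endothelium 4 fell and 1 rose. Their median relative to the fed mean was 0.13 in fasted WT replicate 1 and -0.50 to -0.30 in the other fasted livers. Dnase1l3, a secreted nuclease, fell 2.49-fold, and Lyve1, the hyaluronan receptor, rose from 4.90, 4.46, 4.25, 4.28 and 4.21 to 5.50, 5.81, 6.25, 7.18 and 6.28 (3.45-fold). The number that fell was 2 without fed WT replicate 5 or fasted WT replicate 3. Of 16 stellate cell and fibroblast markers 3 fell and 1 rose, with Lum and Col3a1, matrix genes, down 2.06-fold and 2.01-fold from dim signals. The 1 that rose was not called without any 1 of the arrays other than fed WT replicate 3 and fasted WT replicate 1. None of 15 lymphocyte, 15 monocyte and neutrophil, 9 cholangiocyte and 14 exocrine pancreas markers was called by limma. At an unadjusted p under 0.05 they held 0, 0, 2 and 3 higher and 0, 1, 1 and 0 lower, in that order. Of 18 hepatocyte markers 2 rose and 1 fell (median 0.01).

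The hepatocyte genes that differ along the lobule, from the portal vein with its oxygen-rich blood to the central vein, were counted by zone. Of 12 periportal markers 8 rose and 1 fell (median 0.66), and of 11 pericentral markers 0 rose and 3 fell (median -0.22). Most of the periportal genes that rose, such as Pck1, Hal, Arg1 and Cps1, are enzymes of glucose and nitrogen metabolism counted above. Of genes with other functions the periportal Cyp17a1, described above, rose (log2 3.64). The periportal Cyp2f2 and Cdh1 differed by -0.22 and -0.60 and were not called. The pericentral Cyp2e1, Axin2 and Lgr5 differed by 0.09, -0.02 and 0.0 and were not called either. Gulo, the last enzyme of vitamin C synthesis, and Lect2, a secreted protein, both pericentral, fell 2.48-fold and 2.68-fold. The pericentral Cyp1a2, described above, fell as well.

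**Figure D4:**
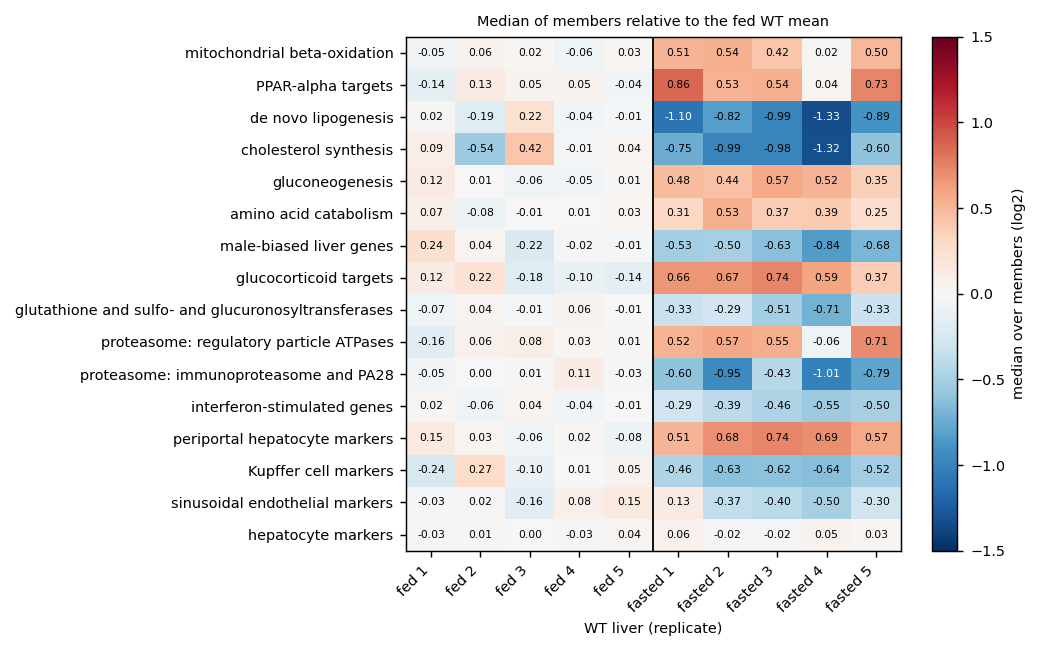
Median over the measured members of each list of the log2 signal minus the fed WT mean, in each of the 10 WT livers (columns), on a colour scale from -1.5 to 1.5. Fasted WT replicate 4 has the lowest cholesterol synthesis value, -1.32, and beta-oxidation, PPAR-alpha target and proteasome ATPase values near 0, at 0.02, 0.04 and -0.06, where the other fasted livers lie well above 0.

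Growth and iron genes gave few calls. Of 33 cell cycle genes 0 rose and 3 fell, Cdk2 among them (1.77-fold). Leaving out any of fed WT replicates 2 and 5 and fasted WT replicates 2 and 4 left 1 that fell. Tfrc, the transferrin receptor, rose from 5.10, 5.0, 4.54, 4.20 and 4.28 to 6.69, 5.53, 6.46, 6.39 and 5.47 (2.81-fold, adjusted p = 0.00421), and hepcidin (Hamp) differed by 0.04. Alas2, the erythroid enzyme of heme synthesis, fell from 7.67, 7.45, 7.41, 7.61 and 7.77 to 6.33, 6.02, 5.80, 6.05 and 5.79 (3.0-fold), while the other measured erythroid markers, Klf1, Epb42, Gata1 and Slc4a1, differed by 0.22, 0.11, 0.06 and -0.25 and were not called. Klf10, an early gene that also responds to sugar, fell 2.86-fold.

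Some genes varied widely between mice of a group. Within the fed livers the largest standard deviations among genes with a mean above 5 over the 10 WT arrays, predicted gene models left out, were those of Ctse, Egr1, Cyp2b9, Trp53inp1 and Nr4a1, and within the fasted livers those of Egr1, Cyp2c70, Jun, Slco1a1 and Elovl3. The immediate early gene Egr1, a transcription factor switched on within minutes by many stimuli, gave 9.44, 7.65, 6.91, 7.61 and 5.12 in fed and 5.91, 6.02, 8.40, 8.71 and 5.96 in fasted livers. Jun gave 8.29, 6.77, 5.95, 6.40 and 5.06 and 5.96, 5.94, 8.86, 6.81 and 6.02. Fed WT replicate 1 was the highest fed liver for both, and fasted WT replicates 3 and 4 were the highest fasted ones. Nr4a1 and Trp53inp1 were highest in fed WT replicates 1 and 2, with 7.48, 7.56, 4.93, 4.92 and 5.33 for Trp53inp1, the replicates in which Igfbp1 and Mt2 were also high. Cyp2b9, a female-biased cytochrome, spread from 3.89 to 7.98 in the fed and from 4.94 to 5.94 in the fasted livers.

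Some neighbouring genes were called together. With the 19504 placed genes in genome order, 21 runs of 3 or more neighbours were called in 1 direction, 7 of them higher and 14 lower, and they held 72 of the 1371 called genes that could be placed (5.25%). The longest run, of 8 genes on chromosome 3, held the 7 mu-class glutathione transferases and Ampd2, and the next, of 6 on chromosome 5, the Ugt2b genes. Other runs of related genes were Hsd3b5, Hsd3b2 and Hsd3b3 on chromosome 3, Gstp1, Gstp2 and Gstp3 on chromosome 19, and the Ces2 and Ces3 carboxylesterases on chromosome 8. Further runs held unlike genes. Among these, Psmb9, Tap1 and Psmb8 of the MHC region on chromosome 17 fell, and Nnmt, Zbtb16 and the predicted gene Gm5617 on chromosome 9 rose. Some members were called with all arrays but not without single ones: leaving out 1 array at a time, the adjusted p reached 0.0888 for Ampd2, 0.0581 for Hsd3b3, 0.123 for Gstp3 and 0.118 for Tap1, so the runs they stand in could be shorter.

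In 3 probe sets the fasted WT livers stood apart from all other livers of the study except 1. These were chosen after the values were seen, as those in which all 5 fasted WT arrays lay more than 1 log2 unit outside the 14 arrays of fed WT replicates 2 to 5 and both Mcl1KO groups; the widest gap in any other probe set was 0.33. Ctse, the protease cathepsin E, gave 6.54, 2.70, 3.18, 2.85 and 3.25 in fed WT and 7.90, 7.12, 7.55, 6.93 and 7.44 in fasted WT livers, and between 2.30 and 3.47 in the 10 Mcl1KO livers, fed or fasted. The predicted gene Gm4788 gave 6.0, 9.65, 9.62, 9.65 and 9.74 in fed WT and 4.0, 2.99, 3.63, 4.11 and 4.78 in fasted WT livers, and between 8.33 and 9.67 in the Mcl1KO livers. A probe set without a symbol, TC0M00000009.mm.2, gave 10.55, 11.66, 11.67, 11.71 and 11.68 in fed WT, 9.27, 9.47, 9.15, 9.43 and 9.65 in fasted WT and between 11.37 and 11.70 in the Mcl1KO livers.

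In all 3, fed WT replicate 1 lay outside the other fed WT livers on the side of the fasted WT livers. The fasting difference in Mcl1KO livers was 0.40 for Ctse, -0.62 for Gm4788 and -0.09 for the probe set without a symbol, which the choice of the 3 already implies. Both named genes are on chromosome 1. The 1082 placed genes whose identifiers start with TC01 were all on chromosome 1, and the third probe set is 1 of 9 whose identifiers start with TC0M; the other 8 differed by -0.14 to -0.01 between fasted and fed WT livers and were not called. Without fed WT replicate 1 the 3 differences grew to 4.39, -5.76 and -2.28. Whether the fasted WT mice and the mouse of fed WT replicate 1 differ from the other mice in something other than food is not given in the labels, and in the WT livers such a difference and fasting cannot be told apart for these 3 probe sets or for any other. The Mcl1KO livers, in which none of the 3 probe sets was called, give a second fasting comparison with other mice. Of the 1507 probe sets called in WT livers, 1403 (93.1%) differed in the same direction there and 1011 (67.1%) were also called in that direction. The latter are 31.5% of the 3208 called in Mcl1KO livers, which are 14.4% of all probe sets. How many of all probe sets differed in the same direction in WT and Mcl1KO livers was not counted, so the 93.1% has no such share beside it.

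**Figure D5:**
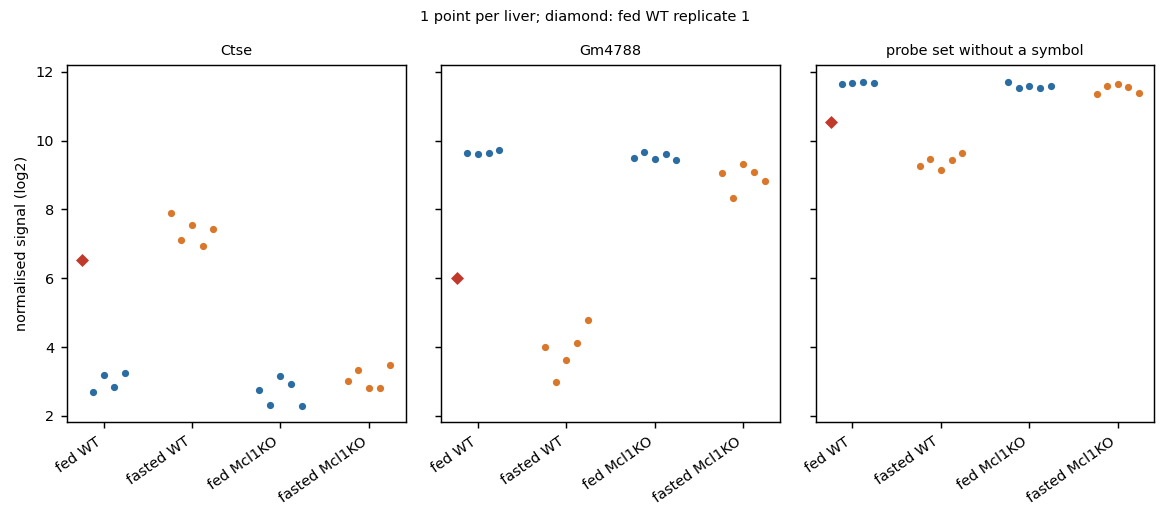
Normalised log2 signal of Ctse, Gm4788 and a probe set without a symbol in all 20 livers, 5 per group, with fed WT replicate 1 as a red diamond. The fasted WT livers stand apart from the Mcl1KO livers and from fed WT replicates 2 to 5 in each panel, and the diamond lies between.

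The WT response was compared with that of Mcl1KO livers gene by gene through the interaction term, which limma called in 30 of 22206 probe sets (0.135%). Its standard errors are wider (median 0.19, against 0.13 for the WT difference), so a gene that was not called may still differ. Cidec rose more in Mcl1KO livers, by 4.66 on log2 against 1.92 in WT (interaction adjusted p = 0.022). Hsd3b2 fell by 3.83 in Mcl1KO livers and by 1.06 in WT (interaction adjusted p = 0.000329). Glycogen synthase, Gys2, fell in WT and differed by 0.25 in Mcl1KO livers (interaction adjusted p = 0.0281), and the Kupffer cell markers Vsig4 and Fcna, which fell in WT, differed by 0.32 and 0.31 (interaction adjusted p = 0.022 and 0.0445). Among genes with large changes in WT, the term was small and not called for Hsd3b5 (-0.08), Cdkn1a (-0.05), Scd1 (0.02) and Fkbp5 (0.07). It was large and called for Gm4788 (4.41, interaction adjusted p = 0.00842) and Ctse (-3.29, interaction adjusted p = 0.0382). These last genes were picked out by the gap between the fasted WT and the Mcl1KO livers. The model assumes 1 spread for all groups.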

How the data were processed

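RNA of 20 mouse livers, 5 per group, was hybridised to 1 Affymetrix array each. The deposited values are log2 probe set signals that the authors made with RMA and Partek 7.0, per the submitters' processing notes. RMA corrects background and brings all arrays to a common distribution, which removes any overall shift in RNA content. The base of the logarithm is not stated and was taken as log2 from the range, 1.34 to 12.56. No source used here gives the RMA settings or the genome build. The number of arrays, 5 per group, limits the precision.

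The members and all 70 gene lists were chosen with earlier results of these data known. limma 3.58.1 in R 4.3.3 was fitted to all 22206 probe sets and 20 arrays with 1 mean per group, and p-values of fasted WT minus fed WT were adjusted over all probe sets (Benjamini-Hochberg). Symbols came from the platform annotation, in which 19572 probe sets had 1 symbol and 2634 none. The 55 genes with several probe sets are represented by their brightest one. Of 1644 listed symbols 1490 were matched to a probe set, and the others are not analysed here. In simulated data for this comparison, run on 22206 probe sets of which 200 were changed, limma recovered 29.9% of changes of 0.5, 95.5% of 1 and 100% of 2 on the log2 scale, with 6 false calls.

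Named genes were the 15 largest rises and 15 largest falls with groups apart, up to 5 called members of each list in each direction, the 5 most variable genes of each WT group, and a short standard list. Genes described as not called, E030018B13Rik and the 3 probe sets with 1 fed liver apart were chosen after their values were seen. Alternatives were the WT arrays alone, 2 other scalings, a filter on dim probe sets, trend and robust moderation, array weights, the replicate number as a block, and leaving out each WT array. Same-numbered mice did not deviate together (correlations -0.11 to 0.03), so the replicate numbers do not pair them.

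Promoter windows of 15691 genes (RefSeq, GRCm38.p6) were searched on both strands for 16 motifs. The 2 shown with sequences, CCAAT and the interferon response element, were chosen after their shares were seen. The others were a TATA box (TATAAA), an E-box (CACGTG), a cAMP element (TGACGT) and its palindrome, 2 sterol elements, a D-box, a STAT site, forkhead, HNF4 and HNF1 sites, an amino acid response element, a direct repeat for nuclear receptors and a glucocorticoid element. Of these TGACGT stood in 15.1% of genes that rose, 7.06% of those that fell and 9.97% of all. The palindrome TGACGTCA stood in 3.29%, 1.51% and 2.63%, in that order. The letters CG, which TGACGT holds, occurred a median of 19 times in the first window of genes that rose. The median was 15 in genes that fell and 14 in all. Whether the share of TGACGT follows this composition was not tested.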

Additional observations from a re-analysis of the deposited data

Results flagged for a closer look

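A value is given here where 1 liver of a WT group lay far from the other 4, with a gap above Dixon's critical value for 5 samples (0.71). Of 524 groups of 5 values tested, 2 for each gene named, 30 met this. Chance alone gives such a gap in about 1 in 20 groups, which is near that share, so single entries carry little weight. Fed WT replicate 1 accounted for 8 of the 30 and fasted WT replicate 4 for 7. No cause was tested.

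Fed WT replicate 1 was high for Ctse (6.54, the others 2.70 to 3.25), Bhmt (11.16, the others 9.77 to 10.02) and the dim gene Omd (2.77, the others 1.72 to 2.02). It was low for Gm4788 (6.0, the others 9.62 to 9.74), Cyp4a14 (8.04, the others 9.93 to 10.22), Atf5 (5.49, the others 6.12 to 6.35), Bdh1 (8.25, the others 8.64 to 8.66) and Acadm (7.54, the others 7.73 to 7.79). Fasted WT replicate 4 was low for Nsdhl (5.0, the others 7.03 to 7.63), Elovl3 (4.73, the others 7.03 to 7.73) and the male-biased Cyp2d9 (10.51, the others 11.09 to 11.18). It was also the lowest fasted liver for the fatty acid genes Cpt1a (9.37, the others 9.70 to 9.81), Cpt2 (7.22, the others 7.76 to 7.88) and Cyp4a10 (11.55, the others 11.85 to 11.89), and the highest for Fmo2 (8.82, the others 8.22 to 8.39).

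Fed WT replicate 2 was high for Cidec (3.47) and Cyp3a41a (4.27) and low for Slc27a1 (3.71), Gpt (7.84) and Ahcy (10.72). Fed WT replicate 3 was high for Cyp17a1 (6.99) and Elovl5 (10.12) and low for Ccng1 (6.53), and fed WT replicate 5 was high for Rsad2 (3.72). Among the other fasted livers, replicate 1 was high for Cyp1a2 (8.67), Dbp (9.47) and Gstm1 (11.22), replicate 2 for Sult3a1 (2.55) and replicate 5 for Alb (12.51), and replicate 5 was low for Hsd3b2 (6.28).

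The fasting response of Mcl1KO livers differed from that of WT livers by the interaction term in 7 named genes. On the log2 scale, Mcl1KO minus WT, it was 2.74 for Cidec, 4.41 for Gm4788, 1.26 for Vsig4, 1.09 for Fcna and 0.98 for Gys2, and -3.29 for Ctse and -2.77 for Hsd3b2. Ctse and Gm4788 were picked out because the fasted WT livers lay outside the Mcl1KO ones, so for these the term repeats that choice.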

How the results depend on the processing

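With other settings 1124 to 1733 probe sets were called in place of 1507. The 10 WT arrays alone gave 1600, array medians subtracted 1430, quantile normalisation 1575, probe sets above the median level 1659, trend and robust moderation 1540 and array weights 1733. With the replicate number as a block, which the check of pairing did not bear out, it was 1375. Leaving out 1 array at a time gave 1124 to 1467 called, 506 to 626 higher, 615 to 841 lower and 310 to 365 changed at least 2-fold. The higher share of calls stayed between 42.7% and 49.3%. Of 171 called genes in the text 163 kept their call in all of the 17 alternatives that tested them, 8 lost it in at least 1 (Ampd2, Angptl8, Cyp4a14, Gstp3, H2-D1, H2-K1, Hsd3b3 and Tap1), and no called value changed sign. A probe set dropped by the filter on dim ones has no value in that alternative. Of the genes in the text that were not called, 5 were called under some alternative. In simulated data with 5 livers per group and 200 changed probe sets, 29.9% of changes of 0.5 on the log2 scale were recovered. With the 1507 calls of the real data the adjustment is less strict, so this share does not carry over to them. Small changes may still be under-counted.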
